A study of Mus musculus with 7 samples.

Results

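The cells described here are 450 Ly6C-high, Ly6G-low myeloid cells from infarcted mouse hearts, out of 5862 cell barcodes in a hashed pool of CD11b+ cells and 22630 in the whole study. They were chosen by surface protein, not by RNA. A barcode was kept with at least 200 genes, at most 10% mitochondrial UMIs (unique molecular identifiers, each counting 1 captured transcript) and a hashtag count of at least 10 that was at least 3 times the next hashtag, which left 4416 cells. Of these, 2866 had fewer than 200 counts of the Ly6G antibody, and 450 of them had at least 200 counts of the Ly6C antibody. They were compared with the 1553 Ly6G-low cells that had fewer than 80 Ly6C antibody counts. Another 863 cells lay between the thresholds and joined neither group.

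The mice were male C57BL6/J animals with a myocardial infarction from ligation of a coronary artery, and no uninfarcted heart is in this pool. Hearts were taken on day 1 (5 mice), day 3 (5 mice) and day 5 (3 mice). Shortly before death each mouse received an intravenous CD45.2 antibody, and only viable cells that it had left unlabelled were sorted, which keeps out leukocytes still in the blood vessels. The infarct, its border zone and the adjacent myocardium were digested, and the cells of a day were stained for CD11b with a fluorochrome of their own. The days were mixed, sorted apart by that colour, and given the hashtag antibody of the day (1, 2 and 3 for days 1, 3 and 5) and 10 sequence-tagged antibodies. All were then run in a single 10x Genomics 3' library (chemistry version 3), so that a day is 1 pool of mice and day cannot be told apart from that pool, its CD11b stain or its sort.

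Monocytes leave the bone marrow as Ly6C-high (classical) cells that carry the chemokine receptor CCR2, enter injured tissue and there can turn into macrophages, which lose Ly6C and gain genes for clearance of dead cells and lipid. Ly6C-low cells of an infarct are a mixture of such macrophages, macrophages resident in the heart, dendritic cells and other leukocytes. After infarction, Ly6C-high monocytes are known for an early supply of inflammatory cytokines and proteases. The antibody against Ly6C binds proteins of a pair of neighbouring genes, Ly6c1 and Ly6c2, small membrane proteins of the Ly6 family. Ly6c2 is the member usually found in monocytes, and Ly6c1 is also a gene of endothelial cells.

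Both genes lie on the minus strand of chromosome 15, Ly6c2 at chr15:75108158-75111970 and Ly6c1 at chr15:75044018-75048830 (GRCm38, GENCODE M21). The 250 bases before the most upstream start listed for each gene are shown because the RNA of the pair was found in different cells of the gate (RefSeq, GRCm38.p6, minus strand, chr15:75111972-75112221 for Ly6c2 and chr15:75048838-75049087 for Ly6c1). Capitals mark GAGGAAGT, a motif of the form bound by PU.1, the factor encoded by Spi1, searched on both strands after the sequences had been seen.
Ly6c2: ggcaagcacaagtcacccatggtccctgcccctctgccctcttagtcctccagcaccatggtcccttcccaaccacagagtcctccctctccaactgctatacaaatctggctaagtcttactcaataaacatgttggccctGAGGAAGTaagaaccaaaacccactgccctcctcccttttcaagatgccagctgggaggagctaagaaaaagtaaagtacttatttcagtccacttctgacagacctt
Ly6c1: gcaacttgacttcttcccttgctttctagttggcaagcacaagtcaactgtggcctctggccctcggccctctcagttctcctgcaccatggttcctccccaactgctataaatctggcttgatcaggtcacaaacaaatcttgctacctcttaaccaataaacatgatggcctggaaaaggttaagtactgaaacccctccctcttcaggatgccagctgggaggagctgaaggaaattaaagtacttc
A global alignment paired 216 bases of the windows, of which 164 (75.9%) were identical. The Ly6c2 window held the motif once, beginning 108 bases before the start, and this Ly6c1 window did not hold these letters. The window of the other listed Ly6c1 start held 1 copy and that of the other Ly6c2 start 2, and 2.44% of 32851 windows of this length in the table held at least 1.

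The mRNA of the marker followed the antibody that chose the cells. Ly6c2 stood at 353, 500 and 271 CPM (UMIs of the gene scaled to a common total of UMIs per sum of cells) in the Ly6C-high cells of days 1, 3 and 5, against 25.2, 11.4 and 3.37 in the Ly6C-low cells. Every Ly6C-high sum was above every Ly6C-low sum. Since the rule selected on the protein of this gene pair, these levels are a description and were given no test. Ly6c2 was seen in 73 of 94, 213 of 235 and 79 of 121 Ly6C-high cells, and the 10 cells richest in it held 51.0%, 24.1% and 55.3% of its UMIs. With each cell thinned to 3000 UMIs, the share of Ly6C-high cells with a Ly6c2 UMI was 42.6%, 59.1% and 32.2%, against 5.66%, 3.31% and 1.29% of Ly6C-low cells. Thinning left out 26, 67 and 43 of the Ly6C-low cells and none of the Ly6C-high cells as too shallow. Among Ly6G-high cells of the pool, which are neutrophils by that antibody, the thinned share was 22.3%, 10.5% and 10.9%.

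Ly6c1, in contrast, was found almost only in a few cells of the gate. It had 121 UMIs on day 1, all in 1 cell, and 1 cell each held 44 of 50 UMIs on day 3 and 39 of 40 on day 5. Those 3 cells held no Ly6c2 UMI, between 2 and 6 UMIs of the myeloid lysozyme gene Lyz2 (medians of the gate 148.5 to 314), and 18 to 68 UMIs of the endothelial genes Cdh5, Cldn5, Egfl7 and Tie1. Their Ly6C antibody counts were 876, 1632 and 1117. They also held 558, 331 and 248 UMIs of the fatty acid binding protein gene Fabp4, out of 578, 846 and 360 in all Ly6C-high cells of those days. Cells with at least 3 UMIs of these endothelial genes numbered 1, 2 and 1 in the gate on days 1, 3 and 5. The name monocyte is therefore used for the gate as a whole. It is not used for these cells, nor for the 7 neutrophil-rich cells of day 1 described below.

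Ly6C-high cells made up a smaller share of Ly6G-low cells on each later day. The share was 33.9% on day 1 (94 of 277 cells, exact 95% binomial interval 28.4% to 39.8%), 19.5% on day 3 (235 of 1207, 17.3% to 21.8%) and 8.76% on day 5 (121 of 1382, 7.32% to 10.4%). The 3 intervals did not overlap. They cover counting error only, and with 1 pool of mice a day no test of the days was possible. Of all hashtag-called cells, neutrophils included, the shares were 17.6%, 10.6% and 7.23%. Ranking cells by the share of Ly6C among all antibody counts, with as many cells taken as in the gate, chose 393 of the same 450 cells.

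**Figure D1:**
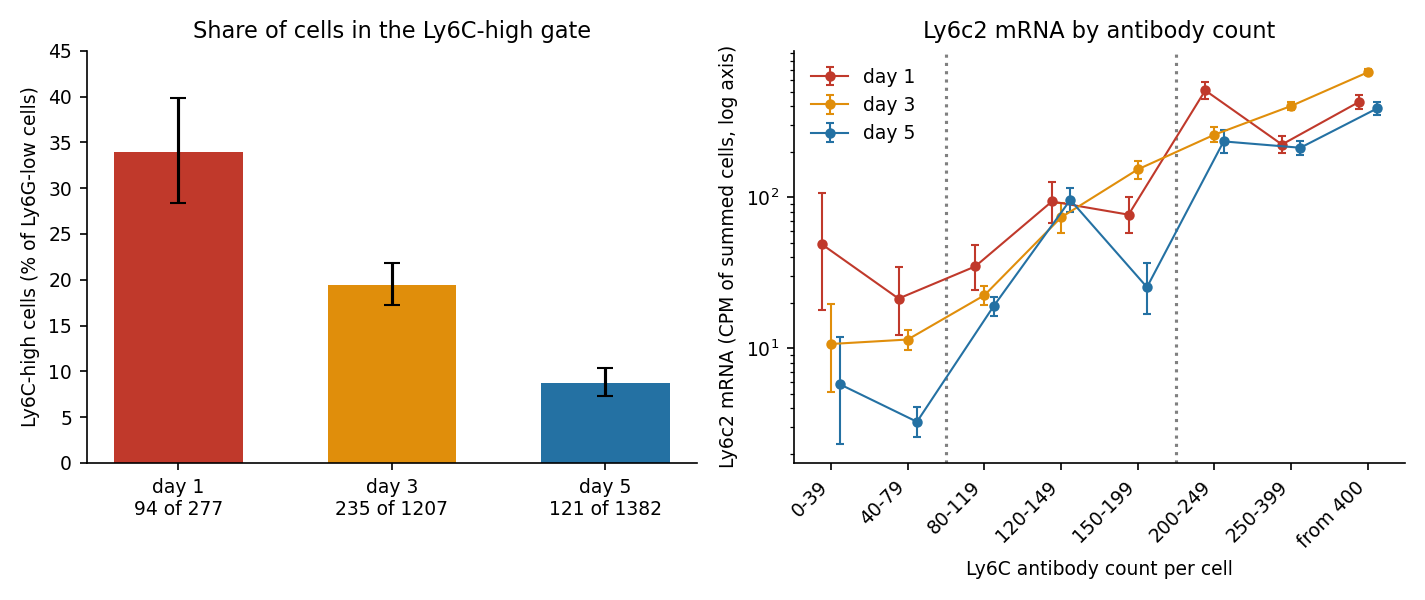
Left, the share of Ly6G-low cells that were Ly6C-high (% of cells, bars) with exact 95% binomial intervals, by day; it was 33.9%, 19.5% and 8.76%. Right, Ly6c2 mRNA (CPM of the summed cells, log axis, exact 95% counting intervals) against the Ly6C antibody count per cell, with dotted lines at the thresholds of 80 and 200 counts; from 200 counts on all points lie above 200 CPM.

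The Ly6C antibody ran from 200 to 2043 counts in the gate, with a median of 327 and quartiles at 260 and 447. Just outside the threshold, the 132 cells with at least 150 and under 200 counts had Ly6c2 at 92.2 CPM and Chil3 at 1214 CPM. Just inside it, the 94 cells with at least 200 and under 250 counts had 306 and 1474 CPM. In the 138 cells with at least 400 counts the levels were 572 and 3229 CPM. The versican gene Vcan went the same way, from 119 to 152 and 324 CPM over these 3 ranges, while the complement gene C1qa went from 1169 to 777 and 400 CPM. Antibody and RNA depth moved together: the median cell held 20669 RNA UMIs at 200 to under 250 antibody counts and 33898.5 from 400 on, and Spearman's rho between antibody count and RNA UMIs was 0.41 over the 450 cells. Between the antibody count and Ly6c2 per 10000 UMIs rho was 0.33 over the same cells, which share 1 library.

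The sums compared below differed in depth and in the other cells they held. The Ly6C-high sums held 2380894, 6922675 and 3224671 UMIs on days 1, 3 and 5, and the Ly6C-low sums 873865, 15571456 and 25797720. Median UMIs per cell were 24181.5, 24163 and 20064 in Ly6C-high cells and 7286, 26464 and 28291 in Ly6C-low cells, so the Ly6C-low cells of day 1 stood apart as few and shallow. Cells with more UMIs of 16 neutrophil genes than of 14 monocyte/macrophage genes made up 7 of 94 Ly6C-high cells on day 1 and none later, against 24 of 79, 81 of 581 and 36 of 893 Ly6C-low cells. On day 1 the Ly6C-low sum was also above the Ly6C-high sum in the markers of dendritic (3367 against 1418 CPM, 15 genes), B (134 against 11.8, 8 genes) and NK cells (135 against 6.3, 8 genes). In the Ly6C-high sums T cell markers reached at most 1.3 CPM, and Cd3e, Cd79a and Ncr1 were at 0. Of the 5862 barcodes 28 also occur in the blood and heart pool, and 2 of these are in the gate.

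Compared with Ly6C-low cells of the same day, Ly6C-high cells had more RNA of classical monocyte, interferon-stimulated, and several cytokine genes. They had less of cell cycle, complement and resident macrophage genes and of some lipid-handling genes. UMIs were summed per gate and day, and the 6 sums were fitted with edgeR's quasi-likelihood test with the day as a block. The 3 days thus serve as replicates. A p-value weighs the mean change against its spread across days, and that spread is drawn toward the one common to other genes. A gene that passed can therefore still differ in size between days. Of 9917 genes tested, 1292 (13%) passed a Benjamini-Hochberg adjusted p of 0.05, of which 621 were higher (6.26% of the tested) and 671 lower (6.77%). The median log2 change of all tested genes was -0.01. Without day 1 the count was 3507, without day 3 it was 137 and without day 5 it was 54, and without cells rich in neutrophil or other non-monocyte markers it was 1824.

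The largest increases among the genes named by size were in Dmkn, Chil3, Plac8 and Vcan. Dmkn, which encodes the secreted protein dermokine, stood at 106, 142 and 89.6 CPM in Ly6C-high cells of days 1, 3 and 5 and at 9.15, 4.88 and 3.8 CPM in Ly6C-low cells. All Ly6C-high sums were above all Ly6C-low sums, and the fitted log2 change was 4.72 (SE 0.22, adjusted p = 0.000968, edgeR). Chil3, which encodes the chitinase-like protein Ym1, was at 2843, 2675 and 1736 CPM against 451, 178 and 66.8 CPM (log2 change 3.92, SE 0.37, adjusted p = 0.00333). Plac8 was at 1446, 1935 and 805 CPM against 650, 99.2 and 25.9 CPM (3.72, SE 0.74, adjusted p = 0.0217). For these genes too the sums of the gates did not overlap. Vcan, a matrix proteoglycan, was at 420, 265 and 161 CPM against 182, 15.7 and 7.36 CPM, so that the day 1 Ly6C-low sum was above the day 5 Ly6C-high sum, while each day had the Ly6C-high cells higher (3.47, SE 0.62, adjusted p = 0.0156).

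The rest of the 12 highest genes were Hp (haptoglobin, log2 change 2.84), F10 (coagulation factor X, 2.81), Lrg1 (2.69), Ms4a4c (2.69), Inhba (the activin A subunit, 2.67), Klra2 (a Ly49-type receptor, 2.46), Lcn2 (lipocalin 2, 2.34) and Slpi (an inhibitor of leukocyte proteases, 2.28), with adjusted p from 0.00128 to 0.0403. Slpi differed by nearly the same amount each day, by a log2 of 2.08, 2.28 and 2.49. For 11 of the 12 genes the difference was smaller on day 1 than on either later day. The exception was Inhba, whose day 1 level of 1058 CPM against 88.1 CPM gave a log2 of 3.75. Of the 3 fits that left out a day, Plac8, Vcan, Hp, Ms4a4c, Klra2 and Lcn2 passed only in that without day 1.

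**Figure D2:**
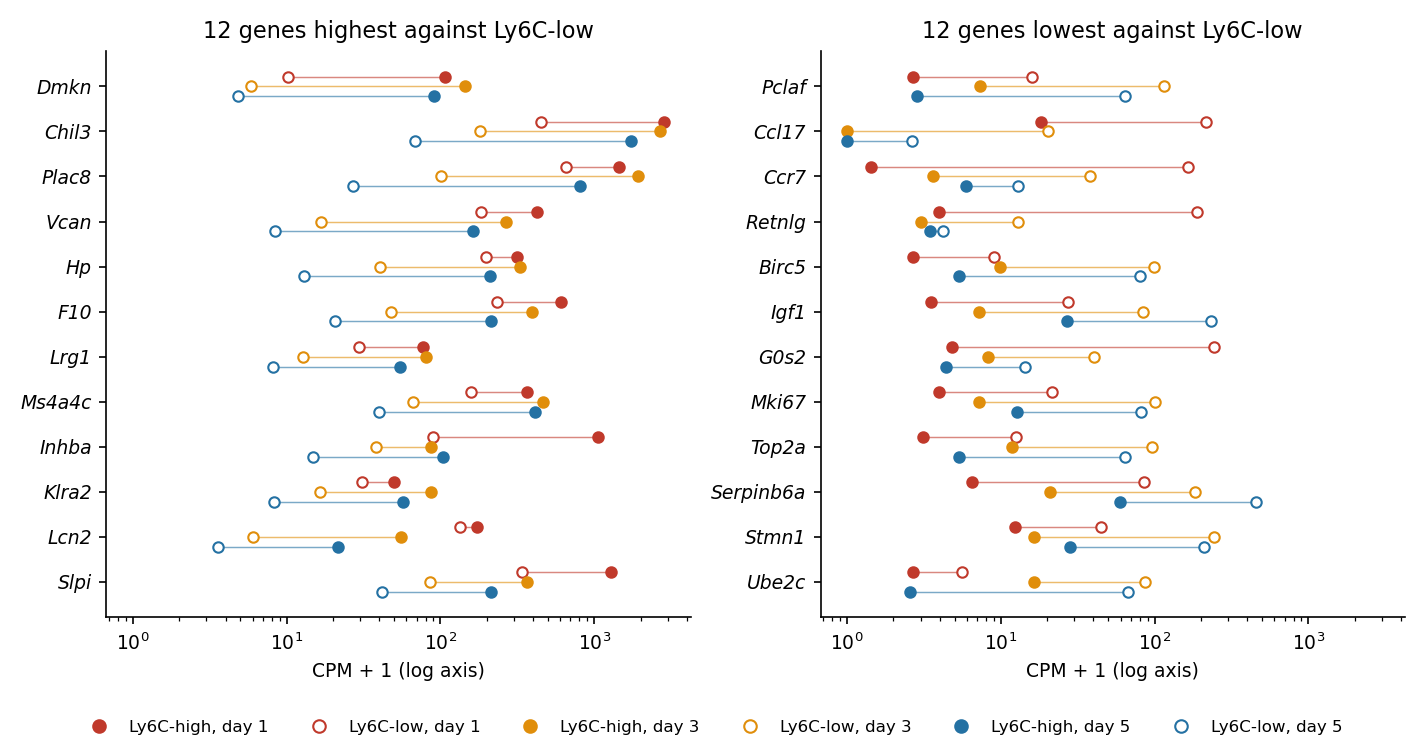
CPM + 1 (log axis) of the 12 genes with the highest and the 12 with the lowest fitted log2 change, in Ly6C-high (filled) and Ly6C-low (open) sums of each day, with a line joining the pair of a day. For Chil3 the Ly6C-high sums lie at 1736 to 2843 CPM and the Ly6C-low sums at 66.8 to 451 CPM; for Serpinb6a the order is the opposite.

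Of 22 classical monocyte genes 19 were tested, 15 were higher and none lower, with a median log2 change of 1.56. Ccr2, the receptor that draws monocytes to CCL2, was at 355, 585 and 514 CPM against 208, 184 and 116 CPM (log2 change 1.70, SE 0.24, adjusted p = 0.00852). Thbs1 (thrombospondin 1) was nearly level across the days in Ly6C-high cells, at 4665, 4249 and 4257 CPM, against 2016, 1066 and 810 CPM (2.02, adjusted p = 0.00408). Cd14 (1.09) and F13a1 (coagulation factor XIII, 0.84) also passed, whereas Fn1, Ifitm6, Lyz2 and Prtn3 did not. Lyz2, a general myeloid gene, had a log2 change of 0.34 (adjusted p = 0.162). Without day 5 only 1 of the 19 passed and without day 3 only 2; without day 1 it was 18, and without neutrophil-rich and other marker cells 16. Of the other genes of the Ly6 family 3 were tested, and Ly6a (log2 change 1.26), Ly6e (1.16) and Ly6i (2.79) were all higher, but none passed without day 3 or without day 5.

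The list of nonclassical monocyte genes was not the mirror image of the classical one. Of 15 tested, 3 were higher (Ceacam1, Ear2 and Itgal) and none lower, beside 6.26% and 6.77% of all genes. The list median was 0.59, and none passed without day 3 or without day 5. Nr4a1, the factor that Ly6C-low blood monocytes need, was at 153, 144 and 185 CPM in Ly6C-high and 228, 181 and 164 CPM in Ly6C-low cells (-0.08, adjusted p = 0.764). Cx3cr1, the fractalkine receptor, was at 32.3, 125 and 119 CPM against 28.6, 137 and 121 CPM (0.11, adjusted p = 0.597), and the sums of the gates overlapped.

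Interferon-stimulated genes were higher in Ly6C-high cells: 13 of 21 tested passed, none was lower, and the median was 1.20. Isg15, a ubiquitin-like protein induced by interferon, was at 452, 333 and 294 CPM against 213, 114 and 61.0 CPM, with no overlap (log2 change 1.80, SE 0.22, adjusted p = 0.00515). Ifi204, a nucleic acid sensor, had a log2 change of 1.48, Irf7, the master factor of type I interferon, 1.54, and Rsad2 (viperin) 1.19. Cxcl10, a chemokine induced by interferon, had a log2 of 0.01, 0.14 and 1.12 on days 1, 3 and 5 and did not pass (adjusted p = 0.209). Without day 5 none of the 21 passed and without day 3 it was 7.

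Cytokine and chemokine genes were split. Of 24 tested, 10 were higher and 2 lower, with a median of 0.57. Cxcl3, a neutrophil-attracting chemokine, stood at 3736, 620 and 515 CPM against 1413, 228 and 118 CPM (log2 change 1.80, SE 0.17, adjusted p = 0.00308), and it passed in all 3 fits that left out a day. Il1b was at 7549, 5090 and 5830 CPM against 5936, 1653 and 1327 CPM (1.53, adjusted p = 0.0231). Osm (oncostatin M, 1.60) and Ptgs2 (cyclooxygenase 2, 1.54) differed by much the same size each day. Ccl2, the ligand of CCR2, had a log2 of 2.54 on day 1, 0.53 on day 3 and 1.15 on day 5 (1.39, adjusted p = 0.0461). Ccl8 and Cxcl16 were lower, by a log2 of 2.05 and 1.00. Tnf had a log2 change of -0.37 (adjusted p = 0.339) and Il6 one of 0.09 (adjusted p = 0.789). Without day 5 only 1 gene of the list was called higher and none lower, and without day 3 it was 5 and none.

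Receptors and adhesion molecules followed the same order in part. Over all genes tested, 6.26% were higher and 6.77% lower. Of 12 chemokine and chemoattractant receptors tested, 4 were higher, among them Ccr1, Ccr2 and C5ar1, and Ccr7 was lower. Of 17 adhesion and migration genes 5 were higher, among them Itgal (the integrin subunit CD11a, 2.11), and Itga6 was lower. Without day 3 or without day 5 no gene of either list was called. Among matrix and repair genes 9 of 21 were higher and 4 lower. Higher were Tgfbi (1.53), the protease gene Mmp19 (1.51) and the urokinase receptor gene Plaur (1.43). Lower were Igf1, Mmp9, Pdgfb and Timp2. Mmp9, the gelatinase that neutrophils also make, was at 19.3, 11.1 and 11.8 CPM against 146, 68.6 and 56.3 CPM (-2.45, SE 0.16, adjusted p = 0.00135) and remained lower, with a log2 change of -2.0, without neutrophil-rich and other marker cells. Of 21 arginine, glycolysis and hypoxia genes 8 were higher and none lower, among them the lactate exporter gene Slc16a3 (1.33) and Hif1a (0.96), while Arg1 and Gapdh did not pass. Without day 3 or without day 5 none of these 21 was called, and 4 matrix genes higher and 4 lower were called without day 3, and 0 and 3 without day 5.

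Transcription factor genes were called about as often as other genes. Of 25 tested, Cebpb (0.90) and Runx1 (0.66) were higher and Egr1 (-1.37) was lower, beside 13% called among all genes, and none passed without day 3 or without day 5. Spi1, which encodes PU.1, was at 291, 368 and 393 CPM against 303, 326 and 367 CPM, with overlapping sums (0.22, adjusted p = 0.265).

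**Figure D3:**
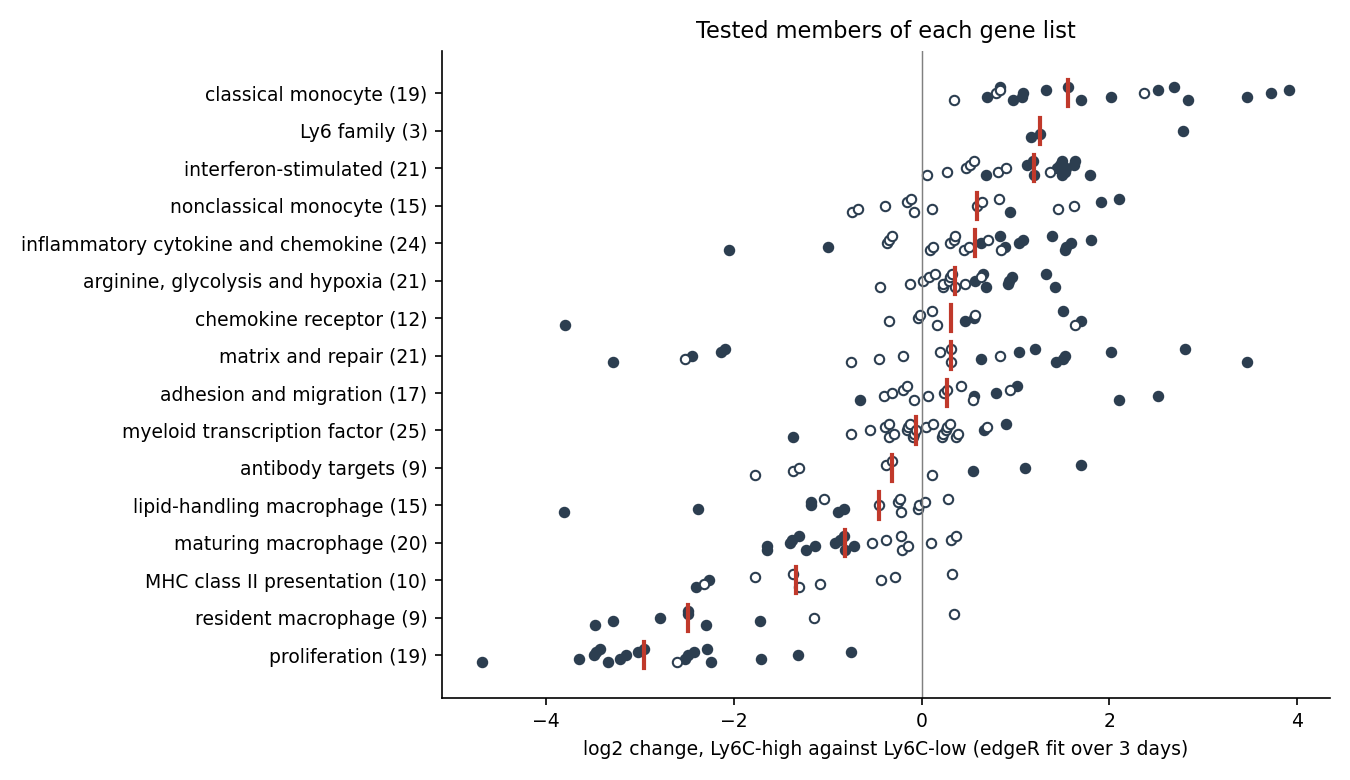
Fitted log2 change (Ly6C-high against Ly6C-low, edgeR over 3 days) of each tested gene of 16 lists, with the number tested in brackets; filled points passed an adjusted p of 0.05 and red bars are medians. Classical monocyte genes have the highest median at 1.56 and cell cycle genes the lowest at -2.96.

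Cell cycle genes were lower in Ly6C-high cells: 18 of 19 tested passed, none was higher, and the median log2 change was -2.96. Without day 3 it was 11 and without day 5 it was 5. Mki67, the marker of cycling cells, was at 2.94, 6.21 and 11.8 CPM against 20.6, 99.8 and 81.0 CPM, with no overlap (-3.21, SE 0.27, adjusted p = 0.00262). Pclaf (-4.14), Birc5 (survivin, -3.47), Top2a (-3.15), Stmn1 (-3.02) and Ube2c (-2.96) were among the 12 lowest genes of the whole comparison. After thinning to 3000 UMIs, Stmn1 was seen in 3.19%, 3.40% and 4.13% of Ly6C-high cells and 9.43%, 27.6% and 22.6% of Ly6C-low cells. Without the cells that held at least 3 proliferation UMIs per 10000, 1 gene of the list was called lower. The genes of this same list chose those cells, so the loss of calls was built in. On day 3 the filter left 303 of 581 Ly6C-low and 228 of 235 Ly6C-high cells.

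Genes of resident macrophages were lower as well, 7 of 9 tested, with a median of -2.49. Igf1, a growth factor of resident and repair macrophages, was at 2.52, 6.21 and 25.7 CPM against 26.3, 83.5 and 232 CPM (-3.29, SE 0.17, adjusted p = 0.000968). The highest Ly6C-high sum was just under the lowest Ly6C-low sum. Folr2 (folate receptor beta) had a log2 change of -2.49 and Gas6, a ligand for the uptake of dead cells, one of -2.79. Mrc1, the mannose receptor, and Ccl24 did not pass.

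Genes known to increase as monocytes turn into macrophages were lower in 12 of 20, with none higher and a median of -0.82. The complement gene C1qa was at 272, 432 and 1148 CPM against 879, 2104 and 3073 CPM (-1.65, SE 0.18, adjusted p = 0.00406), so that the gates were apart on each day but overlapped across days. C1qb (-1.38) and C1qc (-1.65) moved with it. Apoe, the lipid carrier, was at 1577, 3733 and 12400 CPM against 4045, 8242 and 18040 CPM, with the highest level on day 5 in both gates and overlap between them (-0.87, adjusted p = 0.0186). Ctsb (-0.81) and Ctsd (-0.83), proteases of the lysosome, and Mertk (-0.92), a receptor for dead cells, were lower. Of 15 lipid-handling genes 6 were lower, among them Trem2 (-0.82), Fabp5 (-1.18) and Gpnmb (-1.18), and none was higher. The median log2 of this list was 0.28 on day 1, -0.95 on day 3 and -0.65 on day 5. On day 1 the list made up a median of 1.27% of a cell's UMIs in Ly6C-high and 0.819% in Ly6C-low cells. Without day 5, 2 maturing macrophage genes and no lipid-handling gene passed, and without day 3 it was 3 and 1.

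MHC class II genes, which present antigen, had different signs on different days. Of 10 tested, 2 (H2-DMb2 and H2-Oa) were lower, beside 6.77% of all genes. The list median was -1.34, and 1 gene was lower without day 3 and 1 without day 5. Without neutrophil-rich and other marker cells H2-DMb2 had a log2 change of -0.16. H2-Aa was at 318, 338 and 815 CPM against 2503, 1043 and 685 CPM, which is a log2 of -2.81, -1.45 and 0.36 on days 1, 3 and 5 (fitted -1.31, adjusted p = 0.155). Cd74, the chain that class II molecules need for loading, had a log2 of -2.19, -1.39 and 0.40. The Ly6C-low sum of day 1 was the one rich in dendritic and B cell markers, and without neutrophil-rich and other marker cells the fitted log2 change of H2-Aa was -0.46. The difference between the days was not tested.

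Some of the lowest genes moved with markers of other cells, and values are also given with those cells left out. Ccl17 and Ccr7, genes of activated dendritic cells, stood at 214 and 165 CPM in the day 1 Ly6C-low sum. Ccl17 had 41, 0 and 0 UMIs in the Ly6C-high sums and 187, 301 and 42 in the Ly6C-low sums, which puts it at least 39.6-fold lower on day 3 and at least 1.62-fold lower on day 5 against 3 counts per sum. Retnlg and G0s2, genes of neutrophils, had log2 changes of -3.51 and -3.26, and -0.08 and -0.06 without neutrophil-rich and other marker cells, where neither passed (adjusted p = 0.944 and 0.930). The calprotectin gene S100a9 had a log2 change of -2.27 (adjusted p = 0.0154) and one of 0.45 without those cells. S100a8 had -0.50 with all cells and 2.10 (adjusted p = 0.00512) without them. Retnlg, G0s2, S100a9 and S100a8 are among the neutrophil genes that chose the cells left out, so these shifts are partly built in. Serpinb6a, an intracellular protease inhibitor, was at 5.46, 19.9 and 58.9 CPM against 84.7, 182 and 455 CPM (-3.08), and the fitted change was -3.26 without those cells.

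Within the Ly6C-high gate the RNA of the cells also differed between day 1 and day 5. Each day is 1 sum, so no test was made, and intervals are exact 95% counting intervals of the log2 ratio. Among 1500 genes of at least 100 CPM on days 1 or 5, 68 (4.53%) were at least 2-fold higher on day 5 and 79 (5.27%) at least 2-fold lower. From day 1 to day 3 it was 34 (2.31%) and 74 (5.02%) of 1473. Days 3 and 5 were more alike, with 3 (0.209%) higher on day 3 and 25 (1.74%) higher on day 5 of 1438.

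Several cytokine and secreted protein genes were highest on day 1. Serpinb2 (plasminogen activator inhibitor 2) was at 218, 9.10 and 8.99 CPM, a log2 of -4.60 from day 1 to day 5 (-5.19 to -4.06). Il6 was at 167, 18.8 and 10.2 CPM (-4.03, -4.59 to -3.52). Inhba was at 1058, 85.4 and 104 CPM and the serum amyloid gene Saa3 at 1286, 175 and 149 CPM. These were not shared by all cells: the 10 cells richest in it held 87.1% of the Serpinb2 UMIs of day 1, 78.6% of those of Il6 and 50.7% of those of Inhba. Nos2, the inducible nitric oxide synthase gene, was seen in 25 of 94 cells on day 1 (85.3 CPM), 5 of 235 on day 3 and 1 of 121 on day 5. S100a8 was at 1111, 205 and 89.0 CPM and Lcn2 at 173, 54.2 and 20.5 CPM. The 7 neutrophil-rich cells of the gate were all of day 1. Without them the log2 from day 1 to day 5 went from -3.64 to -2.63 for S100a8 and from -3.07 to -2.52 for Lcn2, and the genes at least 2-fold apart numbered 143, 70 higher and 73 lower on day 5. Both S100a8 and Lcn2 are among the genes that chose these 7 cells. In the cytokine list 11 of 21 genes were at least 2-fold lower on day 5 than on day 1, and 1, Cxcl16, was higher. Ly6C-low cells moved the same way, with a median of 3.16%, 1.29% and 0.884% of a cell's UMIs from this list on days 1, 3 and 5.

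Genes of sugar use and hypoxia were high on day 1 too. Of 17 such genes 11 were at least 2-fold lower on day 5 and none higher, with a median log2 of -1.27 against 0.00 for all 1500 genes. Arg1 (arginase 1) was at 3766, 496 and 830 CPM, Pgk1 at 1283, 534 and 416 CPM, the oxidoreductase gene Ero1l at 341, 68.0 and 51.8 CPM and Bnip3, a hypoxia-induced mitophagy gene, at 244, 48.0 and 36.9 CPM. Arg1 was highest on day 1 in the Ly6C-low cells as well, at 3145, 801 and 526 CPM. So was the whole list there, with a median of 1.16%, 0.679% and 0.518% of a cell's UMIs on days 1, 3 and 5.

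Macrophage genes were highest on day 5. Ms4a7 was at 38.6, 284 and 684 CPM, a log2 of 4.15 from day 1 to day 5 (3.84 to 4.46). Fcrls, an Fc receptor-like gene, was at 15.5, 41.6 and 201 CPM, Timp2 at 15.1, 59.7 and 178 CPM, the phospholipid transfer gene Pltp at 13.4, 45.2 and 144 CPM, and Apoe had a log2 of 2.97 (2.93 to 3.02). Of 18 maturing macrophage genes 11 were at least 2-fold higher on day 5 than on day 1, and none was lower. This rise was not particular to the gate. In Ly6C-low cells the list made up a median of 0.963%, 2.93% and 5.52% of a cell's UMIs on days 1, 3 and 5. Selenop, Cxcl16 and Gdf15 were the others of the 8 largest increases. Cx3cr1 was already at its day 5 level on day 3, at 125 CPM against 32.3 CPM on day 1.

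Of 17 classical monocyte genes, 1 (Vcan) was at least 2-fold lower on day 5 than on day 1 and none was higher, beside 5.27% and 4.53% of all genes. From day 1 to day 3, 1 (Ifitm6) was higher and none lower. Chil3 differed by a log2 of -0.71 and Ccr2 by 0.53. The 3 genes that were at least 2-fold higher on day 3 than on day 5 were Plac8 (1935 against 805 CPM), S100a8 and the integrin gene Itgb7 (112 against 50.5 CPM).

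**Figure D4:**
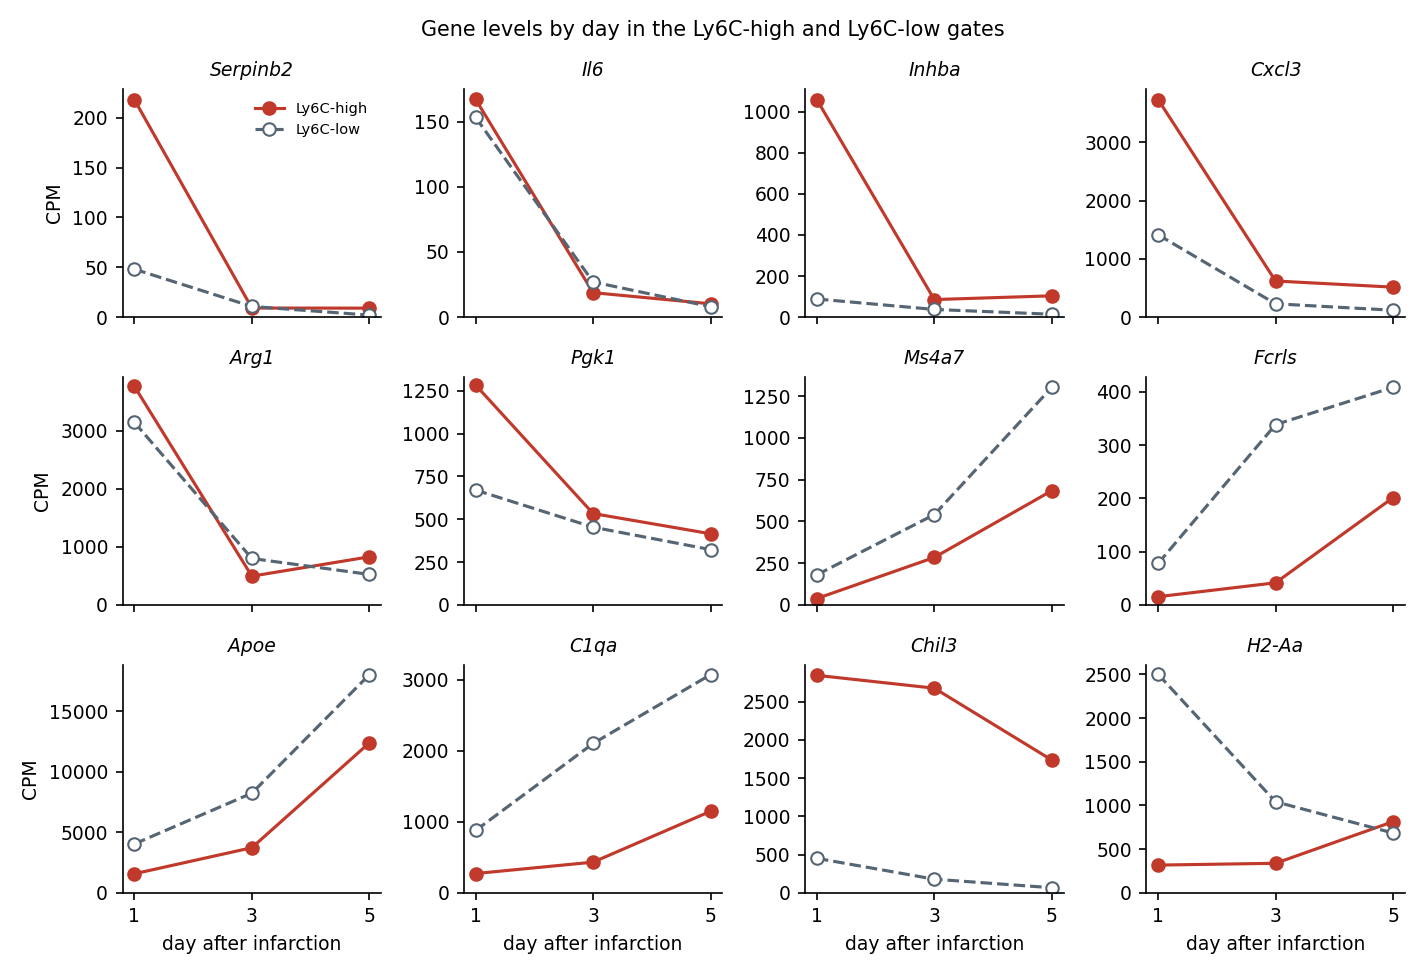
CPM of 12 genes on days 1, 3 and 5 after infarction in Ly6C-high (filled, solid) and Ly6C-low (open, dashed) sums, 1 sum per gate and day. Serpinb2 in Ly6C-high cells is at 218, 9.10 and 8.99 CPM, Ms4a7 at 38.6, 284 and 684 CPM, and the lines of H2-Aa cross between days 3 and 5.

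Many single cells of the gate gave UMIs of both a monocyte and a macrophage gene, but the share with C1qa was near that of Ly6G-high cells. With 3000 UMIs per cell, 38.3%, 45.1% and 46.3% of the Ly6C-high cells of days 1, 3 and 5 had UMIs of both Chil3 and a C1q gene, 39.4%, 41.3% and 27.3% had Chil3 alone, and 13.8%, 8.51% and 17.4% had C1q alone. C1qa itself was seen in 30.9%, 30.6% and 45.5% of Ly6C-high cells and in 24.0%, 29.7% and 46.1% of Ly6G-high cells, which should lack it, so the share of cells with a UMI does not set the gate apart. The 10 cells richest in C1qa held 74.8%, 45.1% and 57.3% of its UMIs in the gate, and the highest cells held 156, 282 and 357. Median depth before thinning was 4647, 4139 and 4913 UMIs in Ly6G-high cells. Chil3 was seen in 77.7%, 86.4% and 73.6% of Ly6C-high cells against 48.9%, 32.8% and 47.3% of Ly6G-high cells. Ccr2 was seen in 69.1%, 72.8% and 73.6% of Ly6C-high cells against 6.01%, 11.4% and 16.7% of Ly6G-high cells. Ms4a7 was seen in 8.51%, 34.5% and 61.2% of Ly6C-high cells and 12.0%, 14.7% and 40.3% of Ly6G-high cells, so that its day 1 share was not above that of Ly6G-high cells.

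The lists varied among the cells of a day to different degrees. The share of a cell's UMIs from classical monocyte genes without Ly6c2 had medians of 3.57%, 3.94% and 3.57%, with 10th and 90th percentiles of 2.44% and 4.92% on day 1. For maturing macrophage genes the median went from 0.951% to 1.61% and 2.76%, and the 90th percentile from 1.95% to 3.17% and 4.77%. MHC class II genes had medians of only 0.045%, 0.041% and 0.055% while the 90th percentiles were 0.396%, 0.608% and 1.20%, and the 10 cells richest in H2-Aa held 94.2%, 57.4% and 57.8% of its UMIs. Cytokine genes made up 3.78% of the UMIs of the median cell on day 1 and 1.83% and 1.88% on days 3 and 5, with the highest cell of day 1 at 16.3%.

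Of the other surface antibodies, those against CCR2 and TIM4, a receptor of resident macrophages, had a higher median and a higher share in Ly6C-high cells on each day. The median CCR2 antibody count was 53.5, 50 and 51 in Ly6C-high cells and 34, 40 and 41 in Ly6C-low cells. As a share of all antibody counts other than Ly6C and Ly6G it was 12.2%, 11.9% and 10.5% against 9.09%, 8.11% and 7.95%, higher on each day, as was the Ccr2 mRNA. The TIM4 antibody had medians of 30, 29 and 30 against 22, 26 and 26, and shares of 6.81%, 7.01% and 6.04% against 5.60%, 5.07% and 5.02%. The F4/80 share was 16.4%, 15.4% and 13.5% against 12.5%, 12.8% and 13%. The MHC class II antibody (IA/IE) made up 21.4%, 24.6% and 29.1% of these counts against 38.9%, 34.0% and 32.3%, while its medians were 71.5, 75 and 82 against 48, 88 and 92, so that the order on day 1 depends on the measure. The shares are parts of a common total. The larger IA/IE share of Ly6C-low cells therefore lowers the CCR2, TIM4 and other shares there, most on day 1. The CD64 antibody, against the Fc receptor encoded by Fcgr1, had medians of 38.5, 38 and 46 against 13, 37 and 46, and shares of 9.75%, 11.5% and 12.2% against 6.47%, 9.95% and 10.7%. Fcgr1 mRNA was at 458, 472 and 456 CPM against 251, 245 and 222 CPM (log2 change 1.10, adjusted p = 0.00408). The day 1 Ly6C-low cells, which were shallow in RNA, had the lowest median of the 6 groups for each of the 10 antibodies.

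The same antibody thresholds were applied to a separate CD11b+ pool of blood and heart cells from mice without surgery, with sham surgery or with an infarct. Its 7 hashtags are not tied to conditions in the labels used here. No cell there had 200 Ly6G antibody counts, and 6600 of the 7820 cells under 80 Ly6C counts were neutrophil-rich. Without neutrophil-rich cells there were 1031 Ly6C-high cells (46 to 385 per hashtag) and 1220 Ly6C-low cells (72 to 276). This RNA filter, which the main comparison of the infarct pool did not use, took out only 47 Ly6C-high cells. The genes that chose the cells left out include Slpi, Lcn2, G0s2, Retnlg, Ccr2, Lyz2 and Ly6c2. The order of these genes below therefore depends in part on the filter. Of the 12 genes that were highest in Ly6C-high cells of the infarct pool, 11 were higher in all 7 hashtags, and Inhba was higher in 1. Chil3 ranged from 2100 to 8198 CPM (median 5501) in Ly6C-high cells and from 232 to 1497 CPM (median 778) in Ly6C-low cells, without overlap. Ccr2 (1839 to 2584 against 427 to 1230 CPM), Hp (1191 to 1644 against 285 to 466 CPM), Plac8, Vcan, Slpi, Klra2 and Ms4a4c did not overlap either. Lyz2, which did not pass in the infarct pool with neutrophil-rich cells kept, was also higher in all 7 without overlap. The share of all genes with such an order was not counted, so these counts have no base rate beside them. Of the 12 lowest genes, 3 (G0s2, Top2a and Serpinb6a) were lower in all 7, and Mki67 was lower in 1. Several genes were near the floor in this pool, so their order by hashtag says little. Over all hashtags, Ly6C-high and Ly6C-low cells held 5 and 10 UMIs of Igf1, 19 and 13 of Birc5, 0 and 20 of Ccr7 and 6 and 36 of Inhba.

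Other features of the infarct gate were not shared there. Thbs1, at 4249 to 4665 CPM in the Ly6C-high sums of the infarct pool, ranged from 14.9 to 976 CPM (median 67.2). Il1b was lower in Ly6C-high cells in all 7 hashtags, with a median of 55.2 against 164 CPM, where the infarct pool had it higher on each day. Ly6a was lower in all 7 without overlap (median 5.68 against 31.4 CPM), the opposite order to the infarct pool. The same held for Itgal (median 167 against 1055 CPM). Ly6i (median 13.9 against 91.6 CPM) and Slc16a3 (47.9 against 145 CPM), also higher in the infarct pool, were lower in all 7 with overlap. Ace and Cd36, genes of nonclassical monocytes, were lower in all 7 without overlap (Ace 15.2 against 711 CPM). The pools differ in their mice, antibodies and sorting, and the difference between them was not tested.

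**Figure D5:**
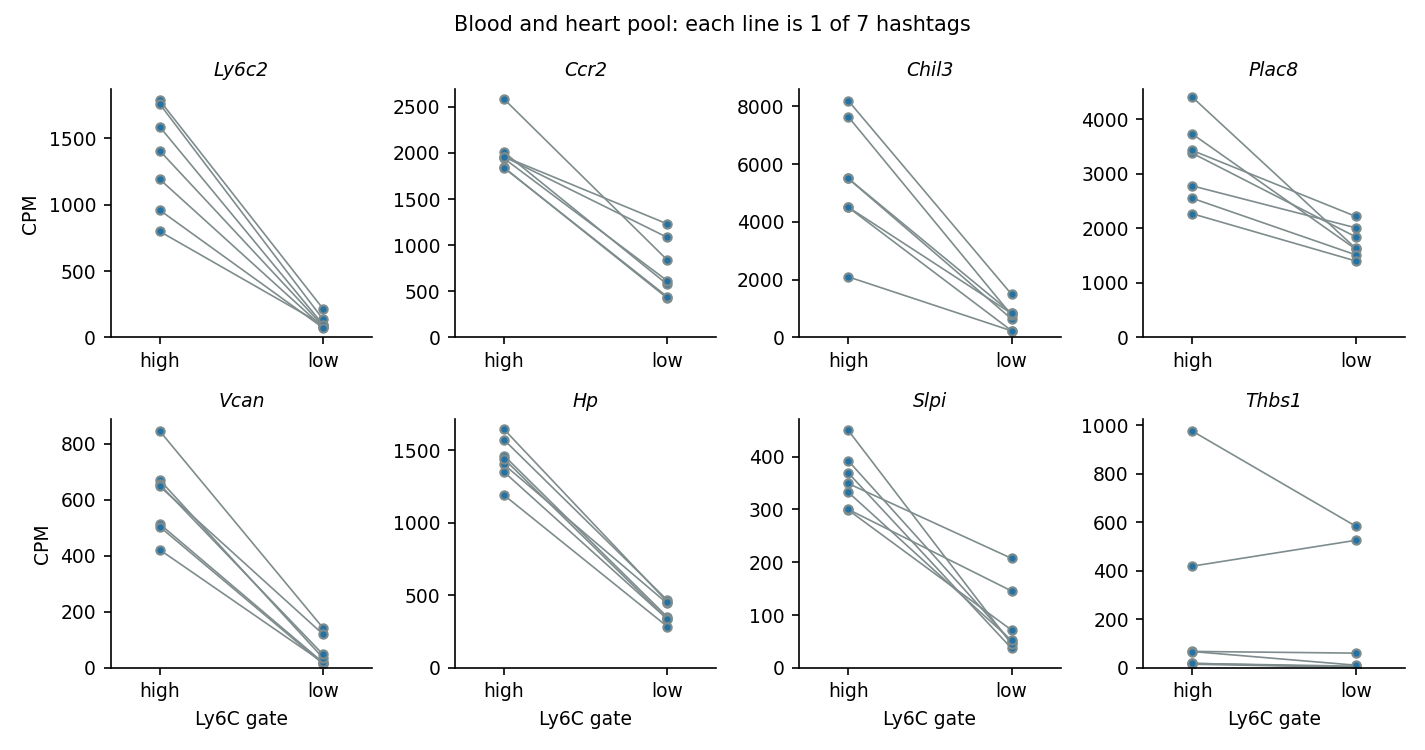
CPM of 8 genes in Ly6C-high and Ly6C-low sums of the blood and heart pool without neutrophil-rich cells, with a line for each of 7 hashtags. Ly6c2, Ccr2, Chil3, Plac8, Vcan, Hp and Slpi are higher in the Ly6C-high sum of each hashtag, and Thbs1 in 6 of 7. Ly6c2, Ccr2 and Slpi are among the genes that chose the cells left out.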

How the data were processed

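The authors deposited UMI counts per gene, antibody and cell barcode, as whole numbers without normalization, made with Cell Ranger 3.0.2 per the file headers and the mm10 (GRCm38) build per the submitters' processing notes; the annotation is not given in the sources used here. Members and gene lists were chosen with earlier results of these data known. Gates, hashtags and cell filters are as given in the results. Doublets within a day were not called. UMIs were summed per gate and hashtag; genes passed filterByExpr, sums were scaled by TMM (factors 0.918 to 1.09), and edgeR 4.0.16 (R 4.3.3) gave glmQLFTest p-values, adjusted over all genes tested (prior degrees of freedom 4.99). SE is the log2 change over the root of F. The step was tested on simulated data. CPM and ratios between days use total UMIs; ratios between gates within a day use TMM-scaled totals. Named genes were the 12 highest and 12 lowest called log2 changes with the same direction on 3 days and at least 50 CPM on average in the higher gate, and between days the largest of at least 2-fold and 100 CPM (8 and 8, or 5 and 5), without mitochondrial, ribosomal, haemoglobin, Gm, Rik and Ly6c genes. Members of the gene lists were named with their values; S100a9 and the endothelial genes were chosen after their values were seen. Figures and counts used Python 3.11.15. The hashtag was the block, since cells of a hashtag share mice. Results of some genes are not reported here.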

Additional observations from a re-analysis of the deposited data

Results flagged for a closer look

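For 11 genes of the lists the Ly6C-high cells were above the Ly6C-low cells on some day and below them on another, each time by at least 0.5 on the log2 scale and with a counting interval that did not hold 0. With 1 pair of sums a day, none of these differences between days was tested. Values are log2 ratios of Ly6C-high over Ly6C-low for days 1, 3 and 5. Acod1 (which encodes the enzyme that makes itaconate) had -1.83, -0.0389 and 0.66. Arg1 (arginase 1) had 0.43, -0.52 and 0.77. Ccl24 (a chemokine of resident macrophages) had 0.0317, -1.01 and 2.10. Cd9 (a tetraspanin) had 1.03, -1.46 and -0.24. Cxcr4 (the receptor of CXCL12) had -0.59, 0.65 and -0.17. H2-DMa (a chain of the class II loading complex) had -0.53, 0.63 and 0.78. Il10 (an anti-inflammatory cytokine) had -1.23, 1.14 and -0.0793. Lgals3 (galectin 3) had 0.61, -0.0484 and -0.65. Mmp12 (macrophage elastase) had 0.80, -3.84 and -3.91. Rel (an NF-kB subunit) had -0.84, 0.44 and 0.68. Spp1 (osteopontin) had 0.86, -1.53 and -0.65. The 10 richest cells held 93.6% of the Ccl24 UMIs of Ly6C-high cells on day 5 and 94.8% of those of Mmp12 on day 1, so these values rest on few cells. Il10 had 66 UMIs in 6 of 94 Ly6C-high cells on day 1, of which 1 cell held 41. For Spp1 on day 5, 1 Ly6C-high cell held 4440 of 17377 UMIs. The counting intervals take no account of UMIs gathered in single cells.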

How the results depend on the processing

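The count of 1292 genes called between the gates depended on the processing. It was 2474 without the filter on low counts, 292 with no replicate block (the hashtag left out of the model), 721 with the Ly6C-high gate from 400 antibody counts, 375 with Ly6G under 100, 614 without cycling cells and 467 with cells thinned to 3000 UMIs. Leaving out 1 day gave 54 (without day 5), 137 (without day 3) and 3507 (without day 1, the day with the few and shallow Ly6C-low cells). Scaling by total counts alone gave 1448, of which 402 were higher and 1046 lower, with a median log2 change of -0.16 over all genes. DESeq2 1.42.0 called 1039. The gene changes that reversed were those of Pcna, at 0.14 without cycling cells, S100a9, at 0.46 without neutrophil-rich cells and 0.45 without other marker cells too, and S100a8, at 2.13 and 2.10. These genes are among those that chose the cells left out, so the reversals are partly built in. For the effects of gates and days on counts the cause was not tested. The day 1, 3 and 5 shares of Ly6C-high cells were 9.75%, 6.79% and 2.10% with the gate from 400 counts and 53.1%, 28.4% and 15.2% from 120 counts. The day 1 share was 23.4% with Ly6G under 100, and that of day 3 was 22.6% without neutrophil-rich cells. With the gate from 400 counts, 43 genes in place of 28 differed at least 2-fold between days 3 and 5. Depth limits the day 1 comparison most, since its Ly6C-low sum held 873865 UMIs from 79 cells.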
